A study of Arabidopsis thaliana with 6 samples.

Results

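The 10 genes described here are markers of abscisic acid and dehydration in Arabidopsis thaliana: LTI65 (also RD29B, AT5G52300), RD29A (LTI78 in RefSeq, AT5G52310), COR15A (AT2G42540), COR15B (AT2G42530), KIN1 (AT5G15960), KIN2 (also COR6.6, AT5G15970), RD20 (AT2G33380), NCED3 (AT3G14440), RD26 (AT4G27410) and AT2G41190. They are a named list, looked up by identifier, and all 10 were found among the 32833 genes of each library. The genes were chosen by the difference in their levels between the genotypes in these same libraries, so their levels and fold changes are given as a description, and so is the statement of which of them lay past the threshold of a fit across all genes. The study set seedlings of amiRNA-VQ1,10, a line whose name gives VQ1 and VQ10 as the targets of an artificial microRNA, against the wild type accession Col-0, with 3 libraries of 3′ RNA-seq per genotype, which the design text calls independent biological replicates. Such a microRNA is built to match chosen transcripts and lower them, and VQ proteins are known partners of WRKY transcription factors. Whole seedlings of both genotypes were 14 days old, had been kept in 21% O2 on medium with 1% sucrose in days of 16 h of light, and were taken 4 h after lights on. The labels name no treatment with abscisic acid, drought or cold. Neither the promoter that drives the artificial microRNA nor the number of independent lines is stated in the labels.

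Abscisic acid is the plant hormone of water deficit. In its core pathway the bound receptor inhibits PP2C phosphatases, which frees SnRK2 kinases to activate bZIP factors of the ABF group. These factors bind a promoter element called ABRE, whose core letters are ACGTG, while the CBF and DREB factors of cold and dehydration bind the element DRE, with the core letters CCGAC. The genes named RD, COR, KIN and LTI were first found as transcripts that accumulate when plants dry, chill or receive the hormone, and most encode very hydrophilic proteins that protect cells which lose water.

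The promoter windows of 4 members are shown because they hold the densest matches to these letters and belong to genes with large and with small fold changes. LTI65 and RD29A are direct neighbours on chromosome 5, on the same strand and 1185 bases apart. Each window runs from 250 bases before the annotated gene start to 50 bases after it, in the TAIR10.1 assembly with RefSeq gene starts. The windows are chr5:21236771-21237070 for LTI65 and chr5:21240467-21240766 for RD29A, both on the plus strand, and chr2:17712281-17712580 for COR15A and chr2:14146506-14146805 for RD20, both on the minus strand. Capitals mark ACGTG and CCGAC on either strand.
LTI65: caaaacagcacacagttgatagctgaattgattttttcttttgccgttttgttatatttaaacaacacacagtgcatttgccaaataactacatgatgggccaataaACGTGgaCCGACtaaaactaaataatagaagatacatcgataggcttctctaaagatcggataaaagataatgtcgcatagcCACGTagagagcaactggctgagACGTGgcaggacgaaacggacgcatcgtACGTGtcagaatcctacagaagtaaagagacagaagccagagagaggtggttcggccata
RD29A: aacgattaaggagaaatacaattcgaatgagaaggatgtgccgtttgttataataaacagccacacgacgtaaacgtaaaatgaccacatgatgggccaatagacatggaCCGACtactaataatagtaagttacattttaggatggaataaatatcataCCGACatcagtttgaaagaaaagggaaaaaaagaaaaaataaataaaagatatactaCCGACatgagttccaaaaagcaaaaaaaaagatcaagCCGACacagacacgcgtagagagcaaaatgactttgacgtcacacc
COR15A: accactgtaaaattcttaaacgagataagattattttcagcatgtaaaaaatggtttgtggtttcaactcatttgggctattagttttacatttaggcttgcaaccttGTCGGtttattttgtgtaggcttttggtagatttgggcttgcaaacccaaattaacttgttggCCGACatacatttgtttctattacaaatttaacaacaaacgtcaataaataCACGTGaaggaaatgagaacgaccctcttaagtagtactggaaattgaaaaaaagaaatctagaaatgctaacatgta
RD20: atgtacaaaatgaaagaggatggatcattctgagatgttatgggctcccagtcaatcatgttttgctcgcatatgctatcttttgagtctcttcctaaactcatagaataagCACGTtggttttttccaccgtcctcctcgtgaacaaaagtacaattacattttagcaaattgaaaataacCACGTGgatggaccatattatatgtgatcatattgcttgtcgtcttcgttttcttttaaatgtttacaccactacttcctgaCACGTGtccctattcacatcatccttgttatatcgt
The window of LTI65 holds 4 matches to the ABRE core and 1 to the DRE core, and that of RD29A holds 0 and 4. Both windows share a run of 16 bases, acatgatgggccaata, which starts 160 bases before the gene start in LTI65 and 164 bases before it in RD29A. RD20 has 5 ABRE core matches and COR15A has 2 of each kind, where the palindrome CACGTG counts once on each strand. Of the 10 windows, 6 held an ABRE core and 4 a DRE core, against 26.7% and 15% of the windows of 27443 protein-coding genes. The windows of COR15B, NCED3 and AT2G41190 held neither run of letters. In the 1000 bases before the gene start 8 of the 10 genes held an ABRE core and 8 a DRE core. The shares over the 27443 genes were 54.4% and 37.4%. There NCED3 had 1 ABRE core and 2 DRE cores, COR15B 0 and 1, and AT2G41190 2 and 0. Most of the COR15B window lies inside the annotated gene COR15A. All these counts depend on the annotated gene starts, and bases more than 50 after a start were not searched.

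The libraries had totals of 926209 to 1177363 counts over genes in amiRNA-VQ1,10 and 1124134 to 1329817 in wild type, and the 12701 genes that passed the filter on low counts had a median of 28.9 CPM (counts per 1000000 counts of the library, with TMM scaling factors). VQ1 had 0, 0 and 0 counts in the amiRNA-VQ1,10 libraries and 5, 1 and 2 in the wild type libraries. VQ10 had no count in amiRNA-VQ1,10 and 1 in wild type. A count of 0 over the 3 amiRNA-VQ1,10 libraries allows up to 0.967 CPM (3 counts), and its exact Poisson 95% interval reaches 1.19 CPM. VQ1 had 2.25 CPM in wild type, with an interval of 0.972 to 4.44 CPM, which overlapped that of amiRNA-VQ1,10. Such an overlap is not a test of the difference, and VQ1 had too few counts to enter the fit. The depth was too low to detect a difference in VQ10. Intervals and floors cover counting error only. Markers of the tissues of a seedling were present: the 6 leaf mesophyll markers summed to 19536 to 20919 CPM in amiRNA-VQ1,10 and 18459 to 19143 CPM in wild type, led by RBCS1A and LHCB1.3. The 6 root markers, led by PYK10 and PHT1;1, summed to 1204 to 1635 CPM in amiRNA-VQ1,10 and 1191 to 1345 CPM in wild type. The 6 guard cell markers, led by GC1 and FAMA, summed to 134 to 177 CPM in amiRNA-VQ1,10 and 135 to 161 CPM in wild type. Of the 6 seed and embryo markers, whose programme also uses abscisic acid, OLEO1, SESA3 and ABI3 had no count and the sum reached at most 2.23 CPM in amiRNA-VQ1,10 and 4.35 CPM in wild type, with CRA1 and EM6 the highest. Of the tested markers in these lists none passed the threshold (edgeR, adjusted p under 0.05).

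All 10 genes had a lower mean in amiRNA-VQ1,10 than in wild type, but by very different amounts. LTI65 stood apart with a mean 9.40-fold higher in wild type, NCED3 and AT2G41190 came next at 2.33-fold and 2.20-fold, RD20 and COR15A stood at 1.42-fold and 1.43-fold, and KIN2, the most abundant of them, at 1.02-fold. In 3′ RNA-seq reads come from the transcript end, so CPM does not grow with transcript length and levels can be set side by side. From KIN2 to COR15B the wild type means ran over 470 to 10.0 CPM. In whole seedlings fewer cells of a type and less RNA per cell cannot be told apart.

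**Figure D1:**
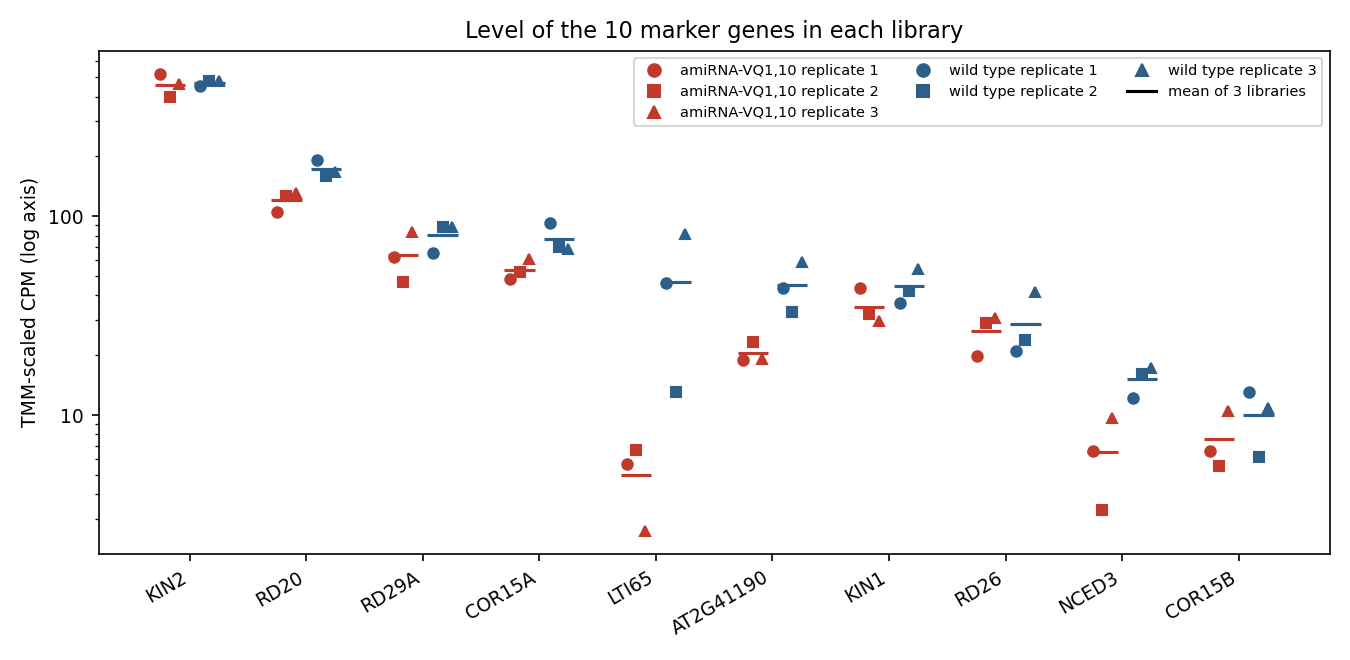
TMM-scaled CPM on a log axis for the 10 genes, ordered by wild type mean, with a point for each amiRNA-VQ1,10 library (red, left) and each wild type library (blue, right) and a bar at the mean of the 3 libraries. LTI65 lies between 2.63 and 6.68 CPM in amiRNA-VQ1,10 and between 13.1 and 81.5 CPM in wild type, while the points of KIN2 overlap.

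NCED3 (chr3:4831286-4834015, minus strand, TAIR10.1) cleaves epoxycarotenoids, the committed step of abscisic acid synthesis in drying leaves. Its level was 6.60, 3.34 and 9.63 CPM in amiRNA-VQ1,10 replicates 1 to 3, against 12.2, 16.2 and 17.2 CPM in the wild type libraries. Every amiRNA-VQ1,10 library lay below every wild type library, with replicate 2 of amiRNA-VQ1,10 the lowest. NCED3 met the count filter through its wild type libraries, with 14, 21 and 19 counts, against 7, 3 and 11 in amiRNA-VQ1,10. The log2 fold change, amiRNA-VQ1,10 over wild type, was -1.16 ± 0.36 (SE, n = 3 per genotype). These levels rest on 21 counts in amiRNA-VQ1,10 and 54 in wild type, which give 6.77 CPM with an exact Poisson 95% interval of 4.19 to 10.4, and 15.2 CPM with one of 11.4 to 19.8.

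RD26, also ANAC072 (chr4:13707192-13709170, minus strand), is a NAC transcription factor induced by drought and abscisic acid. It had 19.8, 28.9 and 30.6 CPM in amiRNA-VQ1,10 and 20.9, 23.9 and 41.6 CPM in wild type. The groups overlapped, and only wild type replicate 3 lay above all amiRNA-VQ1,10 libraries. The log2 fold change was -0.11 ± 0.25 (SE), with -0.28 without wild type replicate 1. Its sign changed to 0.23 without wild type replicate 3 and to 0.07 without amiRNA-VQ1,10 replicate 1. RD26 had a mean of 26.5 CPM in amiRNA-VQ1,10 and 28.8 CPM in wild type, with an SD of 5.83 and 11.2.

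LTI65 (chr5:21237021-21239531) and RD29A (chr5:21240717-21243644) encode related hydrophilic proteins of drought and cold. LTI65 had 5.66, 6.68 and 2.63 CPM in amiRNA-VQ1,10, against 46.1, 13.1 and 81.5 CPM in wild type. The ranges were separate, yet the wild type libraries themselves differed by 6.23-fold between replicates 3 and 2. The log2 fold change was -3.20 ± 0.54 (SE). Leaving out wild type replicate 3 gave -2.55, and leaving out replicate 2 gave -3.68. It reached the count filter through the wild type libraries alone, since it had 6, 6 and 3 counts in amiRNA-VQ1,10, against 53, 17 and 90 in wild type.

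RD29A had 62.2, 46.7 and 83.1 CPM in amiRNA-VQ1,10 and 65.3, 88.5 and 88.7 CPM in wild type. Replicate 3 of amiRNA-VQ1,10 lay above wild type replicate 1, so the groups overlapped. RD29A had a log2 fold change of -0.31 ± 0.17 (SE), which was -0.56 once replicate 3 of amiRNA-VQ1,10 was left out and -0.15 once its replicate 2 was. Within a library RD29A was 11.0, 7.0 and 31.7 times LTI65 in amiRNA-VQ1,10, and 1.42, 6.76 and 1.09 times LTI65 in wild type. In wild type replicates 1 and 3 the neighbours were thus nearly level, while wild type replicate 2 had a ratio next to that of amiRNA-VQ1,10 replicate 2. The promoter windows printed above differ in the same pair, with ABRE core letters in that of LTI65 and none in that of RD29A. The 1000 bases before the gene start hold 6 in LTI65 and 0 in RD29A. Both counts depend on the annotated gene start, and bases more than 50 after it were not searched. The 0 therefore does not show that the promoter of RD29A lacks an ABRE core. No link between these letters and the levels was tested.

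COR15A (chr2:17710441-17712330) and COR15B (chr2:17708593-17710433) lie 7 bases apart on the minus strand and encode proteins of the chloroplast stroma that stabilise membranes during freezing. COR15A had 48.1, 52.3 and 61.3 CPM in amiRNA-VQ1,10, against 92.3, 70.0 and 68.8 CPM in wild type. The ranges were separate, with amiRNA-VQ1,10 replicate 3 close to wild type replicates 2 and 3. COR15A had a log2 fold change of -0.51 ± 0.16 (SE) and -0.36 without wild type replicate 1. COR15B had 6.60, 5.56 and 10.5 CPM in amiRNA-VQ1,10 and 13.1, 6.16 and 10.9 CPM in wild type, with overlapping groups and a log2 fold change of -0.35 ± 0.39 (SE). For COR15B it was -0.68 without amiRNA-VQ1,10 replicate 3, while leaving out wild type replicate 1 gave -0.11. In the RefSeq annotation the last 468 bases of COR15B overlap AT2G42520 on the opposite strand, and the labels do not state the strand setting of the counting, so the counts of COR15B are uncertain. It was the only member with such an overlap. COR15A was 7.29, 9.40 and 5.83 times COR15B in amiRNA-VQ1,10 and 7.07, 11.4 and 6.33 times in wild type, so the ratios of this pair overlapped between the genotypes.

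KIN1 (chr5:5209717-5210826) and KIN2 (chr5:5211719-5212743) are a neighbouring pair of genes for small hydrophilic proteins, induced by cold and abscisic acid. KIN2 had 521, 396 and 461 CPM in amiRNA-VQ1,10 and 451, 477 and 481 CPM in wild type. The amiRNA-VQ1,10 libraries lay on both sides of the wild type libraries, with an SD of 62.6 CPM, against 16.1 CPM in wild type. The log2 fold change of KIN2 was -0.03 ± 0.09 (SE), which was -0.13 once replicate 1 of amiRNA-VQ1,10 was left out and 0.065 once its replicate 2 was. KIN1 had 43.4, 32.3 and 29.8 CPM in amiRNA-VQ1,10 and 36.6, 42.3 and 54.3 CPM in wild type, again with overlap, and a log2 fold change of -0.33 ± 0.19 (SE). For KIN1 this became -0.52 without amiRNA-VQ1,10 replicate 1, while leaving out wild type replicate 3 gave -0.17. KIN2 was 12.0, 12.3 and 15.5 times KIN1 in amiRNA-VQ1,10 and 12.3, 11.3 and 8.85 times in wild type. The promoter windows of the pair share a run of 37 bases. Over the last 300 bases of the transcripts the pairs are 52.8% (KIN1 and KIN2), 46.6% (COR15A and COR15B) and 50.9% (LTI65 and RD29A) identical in a global alignment, with no shared run longer than 14 bases.

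**Figure D2:**
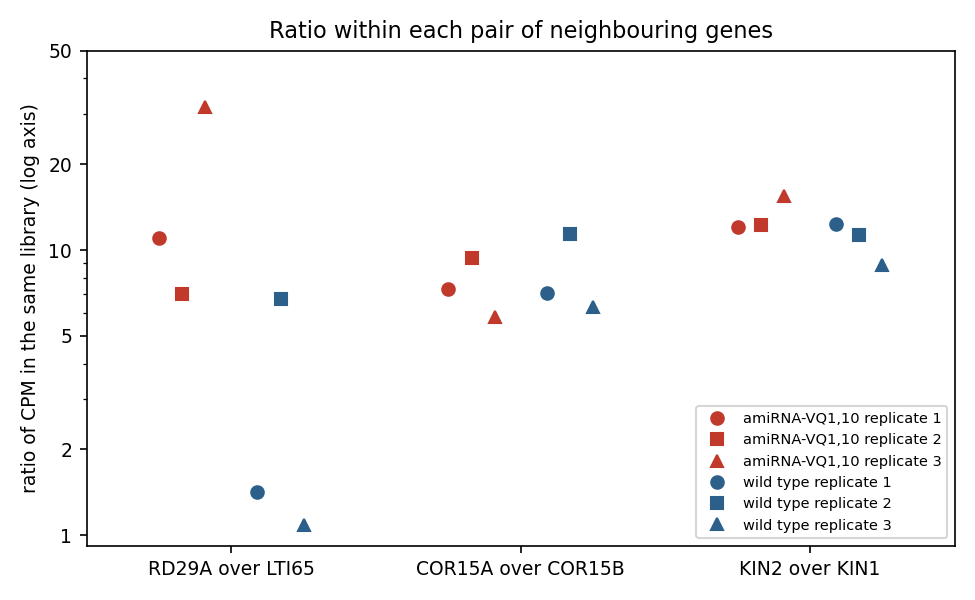
Ratio of CPM between neighbouring genes in the same library, on a log axis, with amiRNA-VQ1,10 libraries in red on the left of each pair and wild type libraries in blue on the right. RD29A over LTI65 spans 1.09 to 31.7, while COR15A over COR15B spans 5.83 to 11.4.

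RD20 (chr2:14144831-14146555, minus strand) is a caleosin, a calcium-binding protein of lipid droplets with peroxygenase activity. It had 105, 127 and 131 CPM in amiRNA-VQ1,10, against 192, 159 and 167 CPM in wild type. The ranges were separate, and the libraries of each genotype lay close together, with a coefficient of variation of 11.8% in amiRNA-VQ1,10 and 10.0% in wild type. RD20 had a log2 fold change of -0.51 ± 0.12 (SE), and between -0.58 and -0.41 with any library left out. RefSeq annotates AT2G41190 (chr2:17167279-17170559, minus strand) as a transmembrane amino acid transporter family protein. It had 18.9, 23.4 and 19.3 CPM in amiRNA-VQ1,10, against 43.5, 33.1 and 58.8 CPM in wild type, with separate ranges. AT2G41190 had a log2 fold change of -1.13 ± 0.23 (SE), and one of -0.90 without wild type replicate 3. Its amiRNA-VQ1,10 libraries varied little (12.2%, as a coefficient of variation), and its wild type libraries more (28.7%).

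In 5 of the 10 genes, LTI65, COR15A, RD20, NCED3 and AT2G41190, every amiRNA-VQ1,10 library lay below every wild type library, which was so for 5.10% of all tested genes. The median log2 fold change of the 10 genes was -0.43, beside 0.00 over all tested genes. With each library left out in turn the median ran between -0.60 and -0.38. In the fit across all genes 2 of the 10, LTI65 and AT2G41190, lay past the threshold on the lower side, as did 0.0787% of all tested genes (10 of 12701 by edgeR, adjusted p under 0.05). On the higher side lay none of the 10 and 0.0236% of all tested genes, and on either side 0.102%. The 5 with separate ranges and the counts past the threshold come from the contrast by which the genes were chosen, so nothing is read from them. LTI65 entered the fit only through its wild type counts, and NCED3 met the filter through its wild type libraries. LTI65 was no longer past the threshold without amiRNA-VQ1,10 replicate 1, and AT2G41190 was past it in only 1 of the 6 fits with a library left out, that without wild type replicate 2. Neither was past it by DESeq2 or limma-voom.

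**Figure D3:**
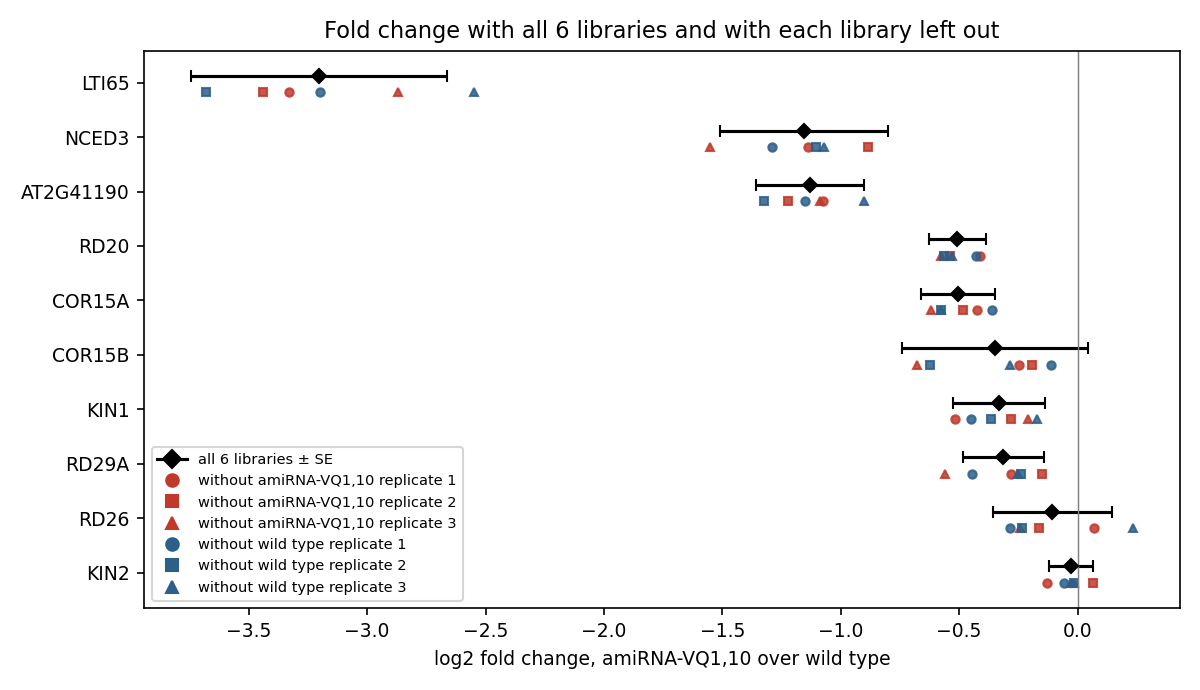
Log2 fold change of each gene, amiRNA-VQ1,10 over wild type, with all 6 libraries (black, ± SE) and with each library left out in turn (coloured by the genotype and shaped by the replicate that was left out). LTI65 stays between -3.68 and -2.55, and RD26 and KIN2 cross 0.

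The genes did not follow the same order over libraries. Wild type replicate 3 was the highest wild type library for 7 of the 10 genes, as it was for 32.1% of all tested genes, and wild type replicate 1 for the other 3, COR15A, COR15B and RD20. Among the amiRNA-VQ1,10 libraries replicate 3 was the highest for 6 genes, but the lowest of all libraries for LTI65 and KIN1. On log2(CPM + 1), centred on the mean of each gene, the median of the 10 genes was -0.41, -0.32 and -0.03 in amiRNA-VQ1,10 and 0.36, 0.12 and 0.40 in wild type. The median gene in amiRNA-VQ1,10 replicate 3 was thus nearer to wild type replicate 2 than to amiRNA-VQ1,10 replicate 1. RD20 lay closest to this median profile, with a root mean square difference of 0.11 on the log2 scale, and LTI65 farthest, with 1.35.

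**Figure D4:**
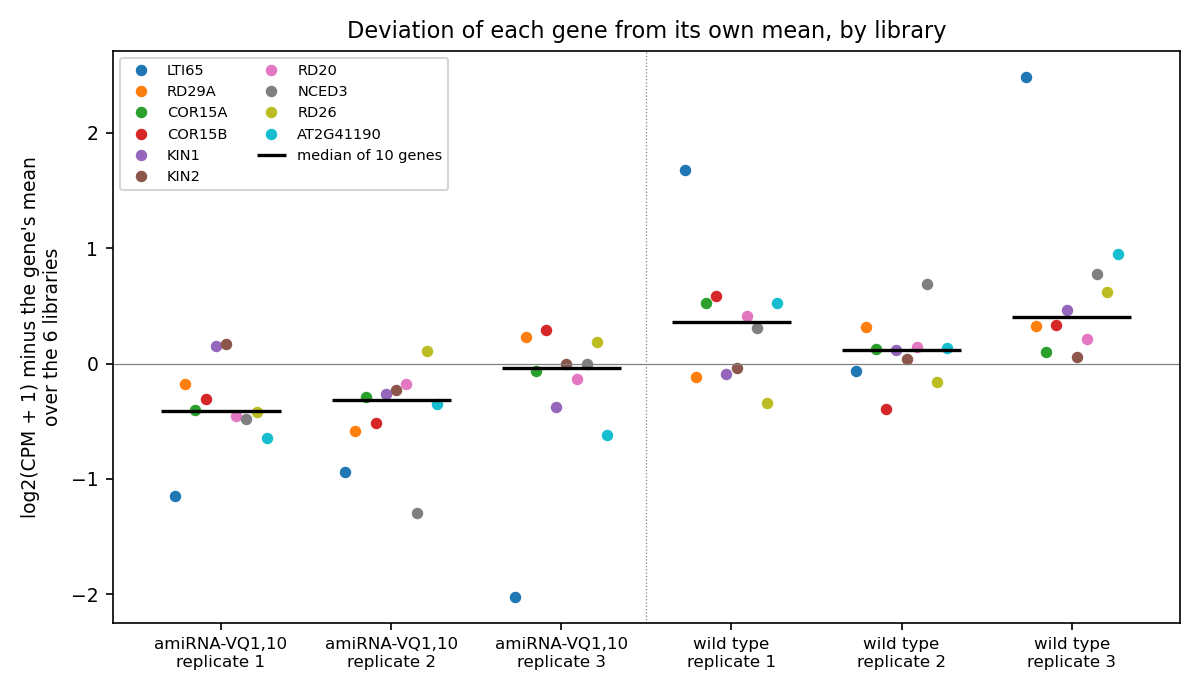
Deviation of log2(CPM + 1) from the mean of the same gene over the 6 libraries, with a coloured point per gene and a black bar at the median of the 10 genes, amiRNA-VQ1,10 libraries left and wild type libraries right. LTI65 runs over -2.02 in amiRNA-VQ1,10 replicate 3 and 2.49 in wild type replicate 3, and in these libraries the other genes lie closer to 0. In amiRNA-VQ1,10 replicate 2 NCED3 (-1.29) lies farther from 0 than LTI65 (-0.94), and in wild type replicate 2 LTI65 lies at -0.06.

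Other genes of the pathway were read from 73 further genes in 4 lists by role, of which 46 had enough counts to be tested. The lists were drawn up with earlier results of these data known. Their counts beside the shares of all tested genes are thus a description, and nothing is read from them. Of the 46 none rose and none fell (edgeR, adjusted p under 0.05 over all tested genes). At an unadjusted p under 0.05 there were 17, all of them lower in amiRNA-VQ1,10, beside 2.98% of all tested genes. DESeq2 and limma-voom also called 0. Of the 46 genes 42 had a log2 fold change below 0, as had 49.3% of all tested genes, with a median of -0.24. Without wild type replicate 2 the count past the threshold was 5 of 48 tested, namely RAB18, LEA7, TSPO, LTP3 and LTP4. LEA7 and TSPO were not among the 46 and entered the fit without wild type replicate 2 through their wild type counts. The count was 1, RAB18, without wild type replicate 1. It was also 1, RAB18, with the replicate number as a block.

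Among 15 genes of abscisic acid synthesis, transport and breakdown 5 were tested, 4 of them with a log2 fold change below 0. AAO3 was the 1 above 0, at 0.13 ± 0.35 (SE, edgeR adjusted p = 0.989). It had 17.9, 15.6 and 6.13 CPM in amiRNA-VQ1,10 and 9.58, 10.8 and 15.4 CPM in wild type. ABCG25, an exporter of the hormone, had 12.3, 21.1 and 13.1 CPM in amiRNA-VQ1,10 and 23.5, 30.8 and 25.3 CPM in wild type (log2 fold change -0.81 ± 0.25 (SE), edgeR adjusted p = 0.420). BGLU18, a glucosidase that releases abscisic acid from its glucose ester, averaged 294 ± 38.3 CPM in amiRNA-VQ1,10 and 382 ± 54.2 CPM in wild type (SD, n = 3 each, edgeR adjusted p = 0.344). ABA2, which makes abscisic aldehyde, had a log2 fold change of -0.54 ± 0.23 (SE, adjusted p = 0.733). ABA1, the zeaxanthin epoxidase upstream of NCED3, differed least, with 259 ± 3.96 CPM in amiRNA-VQ1,10 and 267 ± 10.3 CPM in wild type (adjusted p = 0.985). The other NCED genes of the list, NCED2, NCED5, NCED6 and NCED9, had at most 1 count in any library.

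Of 15 PP2C phosphatases and bZIP factors 11 were tested, all with a log2 fold change below 0 (median -0.33). ABF3, a bZIP factor that binds ABRE, had 97.1, 81.2 and 118 CPM in amiRNA-VQ1,10 and 127, 132 and 138 CPM in wild type (log2 fold change -0.41 ± 0.13 (SE), edgeR adjusted p = 0.443). The phosphatase HAI1 had 10.4, 5.56 and 14.9 CPM in amiRNA-VQ1,10 and 14.8, 14.6 and 38.0 CPM in wild type (edgeR adjusted p = 0.562). HAI1 had 11, 5 and 17 counts in amiRNA-VQ1,10 and 17, 19 and 42 in wild type. Its wild type libraries met the count filter on their own, while amiRNA-VQ1,10 replicate 2 fell below it. Its highest level was in wild type replicate 3, as for LTI65. That was the highest wild type library for 7 of the 11 tested genes. The phosphatases ABI2 and PP2CA had log2 fold changes of -0.54 ± 0.22 and -0.39 ± 0.19 (SE, adjusted p = 0.702 and 0.841).

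Of 15 transcription factors of cold and dehydration 6 were tested, with a median of -0.21. CBF1 and DREB2B had no count, and CBF2, CBF3 and CBF4 at most 2 in a library, so a difference in these DRE-binding factors was not detectable at this depth. HB7, a homeodomain factor induced by abscisic acid, had 126, 122 and 160 CPM in amiRNA-VQ1,10 and 175, 179 and 209 CPM in wild type (log2 fold change -0.45 ± 0.12 (SE), edgeR adjusted p = 0.276). The NAC factors ANAC032 and ATAF1 had log2 fold changes of -0.64 ± 0.29 and -0.15 ± 0.14, and MYB96, a MYB factor of drought and wax synthesis, had one of -0.23 ± 0.21 (SE, adjusted p = 0.780, 0.945 and 0.953).

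Of 28 other targets of dehydration and cold 24 were tested, 21 of them below 0 (median -0.20). The dehydrin RAB18 had 107, 76.8 and 116 CPM in amiRNA-VQ1,10 and 163, 133 and 535 CPM in wild type (log2 fold change -1.44 ± 0.33 (SE), edgeR adjusted p = 0.113). LTP3, a lipid transfer protein, had 71.7, 83.5 and 70.0 CPM in amiRNA-VQ1,10 and 103, 97.0 and 205 CPM in wild type (log2 fold change -0.84 ± 0.21, adjusted p = 0.178). Both were highest in wild type replicate 3, as LTI65 was. That was the highest wild type library for 13 of the 24 tested genes, and for 32.1% of all tested genes. The dehydrin ERD10 and the chloroplast membrane protein COR413IM1 had log2 fold changes of -0.48 ± 0.13 and -1.08 ± 0.29 (SE, edgeR adjusted p = 0.266 and 0.278). COR413IM1 met the count filter through its wild type libraries, with 25, 30 and 23 counts, against 16, 6 and 10 in amiRNA-VQ1,10. LEA7, TSPO, LEA4-5 and GOLS3 had too few counts in most libraries to be tested in the fit of all 6 libraries. LEA7 and TSPO were singled out after their values were seen. LEA7 had 2.83, 6.68 and 3.50 CPM in amiRNA-VQ1,10 and 42.7, 5.39 and 156 CPM in wild type, and TSPO had 4.71, 3.34 and 3.50 CPM in amiRNA-VQ1,10 and 13.1, 7.70 and 33.5 CPM in wild type. The wild type libraries of LEA7 and TSPO stood in the order that LTI65 showed, replicate 3 above replicate 1 above replicate 2. As these genes were picked by their values, nothing is read from this likeness. LEA4-5 had 2.83, 3.34 and 2.63 CPM in amiRNA-VQ1,10 and 5.22, 3.08 and 11.8 CPM in wild type. GOLS3 went the other way, with 4.71, 3.34 and 4.38 CPM in amiRNA-VQ1,10 and 1.74, 2.31 and 2.72 CPM in wild type. GOLS3 had at most 5 counts in any library.

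**Figure D5:**
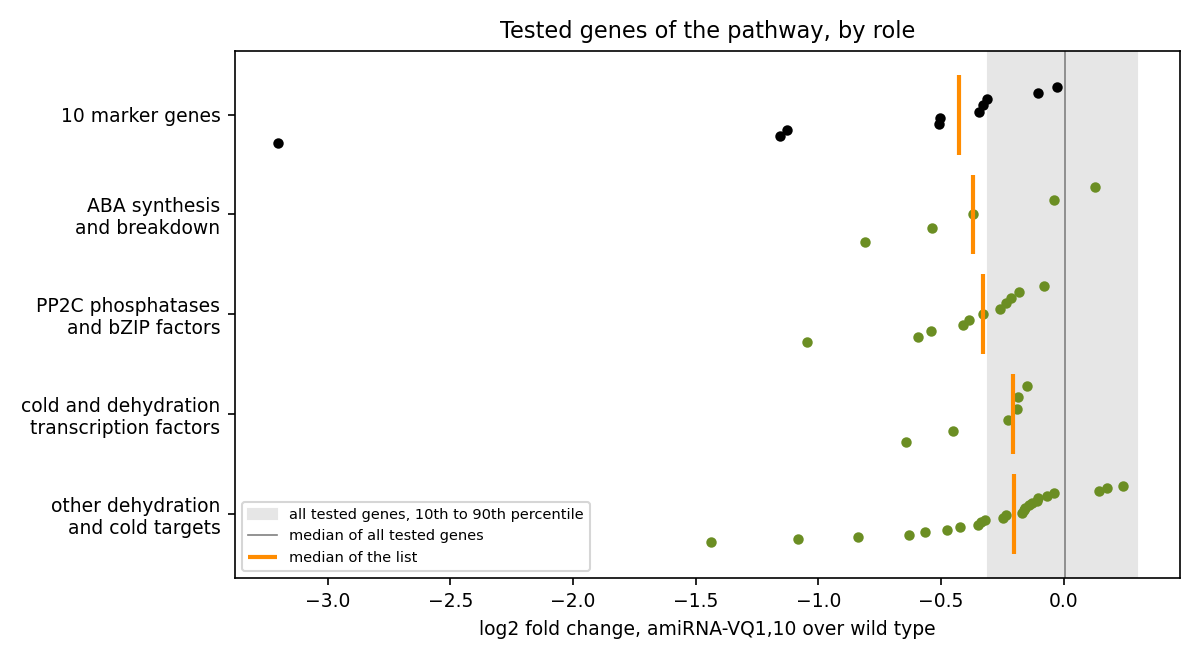
Log2 fold change, amiRNA-VQ1,10 over wild type, of the 10 genes (black) and of the tested genes of 4 pathway lists (green), with the median of each list in orange and the 10th to 90th percentile of all tested genes in grey. The list medians lie between -0.43 and -0.20, and the median of all tested genes at 0.00.

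Among 8250 other tested genes with at least 20 CPM, those whose variation over the 6 libraries lay closest to the median profile of the 10 genes were NRS/ER (AT1G63000), SAG29 (AT5G13170), AT5G35180, AT4G20840 and AtCaN2 (AT2G40410). Their root mean square differences from it were 0.086 to 0.099 on the log2 scale, where a gene with no variation would have 0.31. Of the 8250 genes 2375 lay closer to it than that. NRS/ER, an enzyme of rhamnose synthesis, had 47.1, 49.0 and 53.4 CPM in amiRNA-VQ1,10 and 72.3, 58.5 and 74.2 CPM in wild type. SAG29, a sugar transporter of the SWEET family, had 208, 185 and 256 CPM in amiRNA-VQ1,10 and 318, 300 and 343 CPM in wild type. Alone of the 5 it lay past the threshold (edgeR adjusted p = 0.0372). All 5 share with the median profile lower levels in every amiRNA-VQ1,10 library and, among the amiRNA-VQ1,10 libraries, the highest level in replicate 3. Of all tested genes 5.10% had such separate lower levels, and 0.0787% lay past the threshold on the lower side. The 5 were picked by closeness to a profile that holds the genotype difference by which the 10 genes were chosen. Nothing is therefore read from their lower levels or from the place of SAG29. With profiles centred within each genotype none of these 5 was among the nearest 5.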

How the data were processed

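Per the labels, total RNA of whole seedlings was made into 3′ RNA-seq libraries with molecular identifiers of 6 bp. The deposited counts are raw whole numbers, 1 per gene and library. The submitters' processing notes name TAIR10, STAR, HISAT2 2.0.4 and DESeq2 without their roles. Neither the strand setting nor the use of the identifiers is stated in them. Lines that name no gene stayed out (3.79% to 4.07% of entries outside genes, 4.40% to 5.45% with more than 1 alignment).

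The genotypes were compared over all 6 libraries with the quasi-likelihood test of edgeR 4.0.16 in R 4.3.3 on TMM-scaled counts, after filterByExpr (minimum count 10, minimum total 15), with Benjamini-Hochberg adjustment over 12701 genes, and the test was checked on simulated data. SE was taken as the absolute log2 fold change divided by √F. DESeq2 1.42.0, limma-voom (limma 3.58.1), other scalings and filters, the replicate number as a block and each library left out were alternatives. Names, overlaps and promoter windows came from RefSeq on TAIR10.1, whose nuclear chromosomes are those of TAIR10, and 32548 of 32833 identifiers matched. The counts carry no coordinates. Global alignments used Biopython 1.88.

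The 10 genes, the pathway lists and the marker lists were chosen with earlier results of these data known. Named are the 10 genes, from each pathway list those past the threshold and the 4 with the smallest p, from each marker list the highest 2, and the 5 genes nearest to the median profile with at least 20 CPM. Outside this rule are VQ1 and VQ10, and genes named for their low counts after these were seen (4 NCED genes, CBF1 to CBF4, DREB2B, OLEO1, SESA3 and ABI3). LEA7 and TSPO were named for their levels after these were seen. LEA4-5, GOLS3 and AAO3 were named as the remaining genes beside those described, and LTP4 for a fit with a library left out.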

Additional observations from a re-analysis of the deposited data

How the results depend on the processing

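The count of all genes past the threshold was 13, and it was 92 with no filter, 6 with a strict filter (50 counts in 3 libraries), 6 by DESeq2, 8 by limma-voom, and 10 to 37 with a library left out. Of the 10 genes 2, LTI65 and AT2G41190, were past it. This became 3 with no filter, RD20 being the other, 0 with the strict filter, which left RD29A, COR15A, KIN2 and RD20 and so removed both, 0 by DESeq2, 0 by limma-voom, 1 with the replicate number as a block, and 0 to 2 with a library left out. Their median log2 fold change of -0.43 ranged from -0.60 to -0.38 with a library left out. For the 73 other pathway genes the count of 0 became 7 with no filter, 1 with the block, and 0 to 5 with a library left out. With a library left out the sign changed in RD26 (-0.28 to 0.23; above 0 without amiRNA-VQ1,10 replicate 1 or wild type replicate 3) and in KIN2 (-0.13 to 0.065; above 0 without amiRNA-VQ1,10 replicate 2). Of the 5 genes nearest to the median profile 3 remained with a pseudocount of 5 CPM and 0 with centring within genotype. Scaling by relative log expression or by totals gave 13 and 14 genes in all and left the counts of 2 and 0 as they were. The cause of these shifts was not tested. The replicate numbers were used as a block although the labels do not say what they share. Deviations of libraries with the same number correlated at -0.032 to -0.0065 across genes, and those with different numbers at -0.023 to 0.048. These values run over all tested genes and hold counting error, so they cannot show whether the numbers pair libraries in some genes. Depth limits LTI65, NCED3 and COR15B in amiRNA-VQ1,10, with 15, 21 and 24 counts over the 3 libraries.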
